A study of Mus musculus with 11 samples.

Results

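The transcripts described here come from 51 mouse genes that build and run the primary cilium, measured by RNA-seq in 11 libraries of SMB21 cells. The genes were taken from a list of cilium transport and transition zone genes, and a gene was kept if its mean over the 11 libraries was at least 1 CPM (counts scaled to the size of the library). All 51 listed genes met that rule, out of 22619 genes in the count table, of which 12615 reached the same mean. The member nearest the threshold was Bbs5, at 4.35 CPM, and no listed gene fell outside it. The members fall into 7 roles. There are 10 genes of the intraflagellar transport complex B (IFT-B), 5 of complex A (IFT-A) and 5 motor subunits. A further 11 belong to the BBSome and its chaperonins, and 4 to ciliary membrane cargo and its carriers. The rest are 14 transition zone genes and 2 genes of the EvC zone.

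SMB21 is a mouse medulloblastoma cell line from an adult animal, grown as neurospheres, and every library here carries its Ptch mutant background (strain label Ptch1tm1Mps/J). The Ofd1 mutant group held 4 libraries from 3 clones, with 2 libraries from clone R14 and 1 each from R16 and R25. The Sufu mutant group held 1 library each from clones R13 and R1. The sonidegib group held 2 libraries of the parental line after 24 h with the Smoothened inhibitor sonidegib. The parental group held 3 libraries of the untreated line. The mutant clones came from a transposon screen in these cells, so each mutant group is a handful of clones and not a population. The labels do not say whether the clones were kept in drug, nor what was separate between replicates of the parental line or of R14. The p-values therefore measure only the spread between these libraries, which may in part be technical.

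The primary cilium is a single, microtubule-based antenna on the cell surface. Kinesin-2 carries IFT trains with cargo to the tip, dynein-2 brings them back, IFT-A and the BBSome handle membrane proteins, and the transition zone at the base acts as a gate. In vertebrates the Hedgehog pathway runs through this organelle: Patched holds Smoothened out of it, Smoothened accumulates in it when active, and Sufu and the Gli factors pass through its tip. Ofd1 is a protein of the centriole and of the satellites around it. Cerebellar granule cell progenitors carry primary cilia, and medulloblastomas with a mutant Ptch1 arise from that lineage.

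Library totals ran from 24308451 to 38241595 counts. Ofd1 stood at 13.6, 23.4, 9.27 and 13.6 CPM in the Ofd1 mutants against 43.0, 35.4 and 37.2 CPM in parental libraries. Both Sufu clones had less Sufu than the parental libraries, with 2.76 CPM (R13) and 17.7 CPM (R1), against 29.6, 27.7 and 28.7 CPM. Low Sufu was not particular to the Sufu clones, since the Ofd1 mutants had 12, 12.4, 15.7 and 19.2 CPM, so that R1 lay above 3 of those 4. Sonidegib replicate 2 also had little Sufu (5.60 CPM) and as much Ofd1 (23.4 CPM) as R14 library 2, against 24.8 CPM of Sufu and 45.0 CPM of Ofd1 in replicate 1. The level of Sufu therefore does not tell R1 from the Ofd1 clones. The level of Ofd1 does, since both Sufu clones lay within its parental range (R1 40.3 CPM, R13 42.6 CPM), above every Ofd1 mutant library. That R1 is a Sufu mutant still rests on its label. Gli1, a direct Hedgehog target, stood at 7.68 and 8.82 CPM with sonidegib against 224, 220 and 243 CPM in parental libraries. All 10 granule progenitor markers averaged at least 1 CPM over the libraries. A pair of libraries stood apart. In sonidegib replicate 2 log2 levels were lower for genes with longer exons (r = -0.45 of the level, relative to the mean over libraries, with log2 exon length, against -0.0064 to 0.20 in the other 10 libraries, as a description). On the first principal component parental replicate 3 lay at 3.80. Parental replicates 1 and 2 lay at -1.97 and -0.198 there, and the 6 mutant libraries at 12.8 to 22.5. On the second component parental replicate 3 lay at -10.9, near the 6 mutant libraries (-14.4 to -3.98), whereas parental replicates 1 and 2 lay at 26.8 and 27.7. Counts, medians and named members that move by over 1.5 times without 1 of these libraries are given with and without it.

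None of the 51 members passed the edgeR quasi-likelihood test after Benjamini-Hochberg adjustment over all genes in any of the 4 comparisons. None differed by 1 or more on the log2 scale. Of all genes tested, 6.81% did so in Ofd1 mutants, 7.81% in Sufu mutants and 12.9% with sonidegib over the parental line. In Ofd1 over Sufu mutants 5.87% did. The genes tested were not limited to the members' range of level. Between its highest and lowest library the median member varied 2.08-fold, and 23 of the 51 varied less than 2-fold, which is 45.1% of them. Among 9902 genes in the same range of mean CPM (4.35 to 192) the median was 2.28-fold and 38.6% varied less than 2-fold. Ift27, Kifap3, Arl3, Tmem216 and B9d1 varied at least 3-fold, all 5 with sonidegib replicate 2 as their highest library, and without that library Kifap3 alone did. The highest of the 11 libraries was a sonidegib library for 33 members (replicate 2 for 19 of them). The lowest was a Sufu mutant library for 19 members (R1 for 16 of them) and an Ofd1 mutant library for 18. It was a sonidegib library for 8 and a parental library for 6. These counts were not made over all genes, so whether they are particular to the members was not tested.

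**Figure D1:**
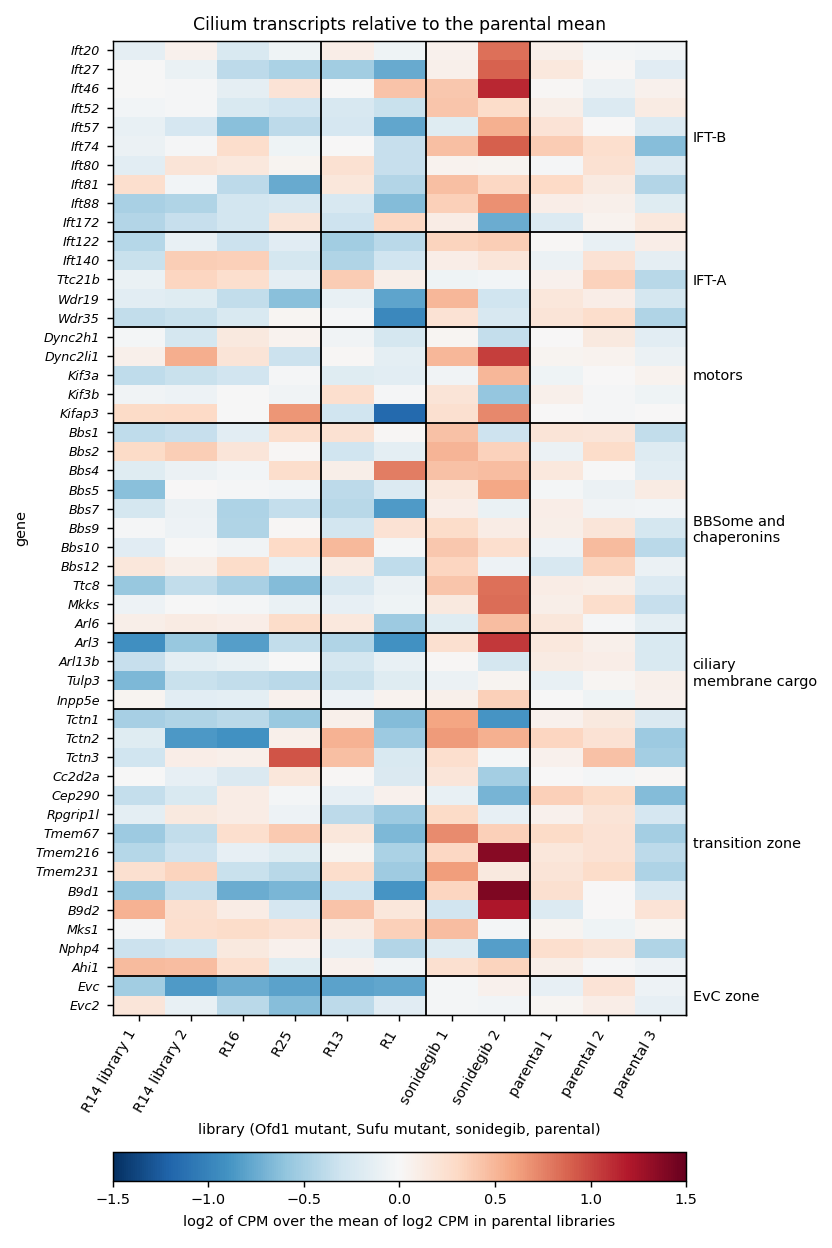
Log2 of CPM over the mean of log2 CPM in the parental libraries, for the 51 cilium members (rows, by role) in the 11 libraries (columns: Ofd1 mutant, Sufu mutant, sonidegib, parental). Red is above and blue below the parental mean. Evc and Arl3 are blue in all 6 mutant libraries, sonidegib replicate 2 holds the darkest reds, and parental replicate 3 differs from the other parental libraries for several members.

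Library values are in CPM and follow 1 order: R14 library 1, R14 library 2, R16 and R25 for the Ofd1 mutants, then R13 and R1 for the Sufu mutants, then replicates 1 and 2 with sonidegib, then parental replicates 1 to 3. Levels of different genes are compared only as CPM per kb of exon. In bulk RNA, fewer cells with a transcript and less of it per cell cannot be told apart.

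The EvC zone is a compartment just above the transition zone where Evc and Evc2, partner membrane proteins, bind Smoothened and pass on its signal. Evc stood at 36.1, 28.8, 31 and 29.8 CPM in the Ofd1 mutants, 29.9 and 30.2 CPM in the Sufu mutants, 50.8 and 54.4 CPM with sonidegib and 47.7, 59.9 and 49.1 CPM in parental libraries. All 6 mutant libraries lay below all 5 libraries of the parental line, treated or not, and the gap from the highest mutant library to the lowest of the others was wider than the spread among the mutants. Evc2 stood at 55.2, 45.1, 36.7 and 31.2 CPM in the Ofd1 mutants, 37 and 43.3 CPM in the Sufu mutants, 47.8 and 47.1 CPM with sonidegib and 49.5, 52.1 and 44.7 CPM in parental libraries. Its Ofd1 mutant libraries spread from above to below every parental library, with the R14 libraries high and R25 low, while both Sufu mutant libraries lay below the parental ones. Per kb of exon Evc2 averaged 7.63 CPM and Evc 5.28 CPM. The genes are neighbours on chromosome 5 and run in opposite directions from starts 1597 bases apart (RefSeq, GRCm38.p6). The 250 bases before each start are shown because the neighbours differ in how their transcripts vary between clones; each reads 5′ to 3′ toward the gene and ends at the last base before the start, at chr5:37336882-37337131 on the minus strand for Evc and chr5:37338228-37338477 on the plus strand for Evc2.
Evc: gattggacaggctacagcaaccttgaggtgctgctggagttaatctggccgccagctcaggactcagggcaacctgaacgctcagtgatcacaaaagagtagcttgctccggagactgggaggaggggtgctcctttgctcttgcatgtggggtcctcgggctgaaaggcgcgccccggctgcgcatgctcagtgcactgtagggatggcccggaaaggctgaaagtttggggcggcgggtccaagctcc
Evc2: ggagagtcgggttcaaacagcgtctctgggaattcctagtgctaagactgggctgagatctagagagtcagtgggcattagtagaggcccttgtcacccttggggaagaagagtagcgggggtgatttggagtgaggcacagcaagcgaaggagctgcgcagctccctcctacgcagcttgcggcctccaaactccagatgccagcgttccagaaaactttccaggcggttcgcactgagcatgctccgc
The Gli motif GACCACCCA, searched on both strands of the window that runs 250 bases before to 50 after a start, was in 0 of the 46 members with a RefSeq window and in 78 of 27025 genes (0.289%).

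Small GTPases and their partners carry lipid-anchored and membrane proteins into the cilium. Arl3 releases lipidated cargo inside the cilium, and stood at 27, 34.5, 28.9 and 39.6 CPM in the Ofd1 mutants, 37.3 and 27.2 CPM in the Sufu mutants, 60.2 and 107 CPM with sonidegib and 57, 53.8 and 43.6 CPM in parental libraries. All 6 mutant libraries were below the parental ones and both sonidegib libraries above them, the second far above. Tulp3, an adaptor that links IFT-A to membrane receptors, stood at 138, 175, 170.3 and 167 CPM in the Ofd1 mutants, 175 and 194 CPM in the Sufu mutants, 206 and 227 CPM with sonidegib and 204, 225 and 232 CPM in parental libraries. Again no mutant library reached the lowest parental one. Arl13b, which activates Arl3, stood at 47, 54.1, 56.1 and 59.5 CPM in the Ofd1 mutants, 49.8 and 55.4 CPM in the Sufu mutants, 60.5 and 49.8 CPM with sonidegib and 65.1, 64.3 and 51.2 CPM in parental libraries, overlapping in every group. Per kb the 4 cargo members were close, from 20.6 CPM for Tulp3 to 11 CPM for Arl13b. Inpp5e, a lipid phosphatase of the ciliary membrane, had 72.1 to 103 CPM over the 11 libraries.

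IFT-B is the part of the train that travels with kinesin-2. Its highest member per kb was Ift27, a small GTPase that helps the BBSome leave the cilium (15.4 CPM), and its lowest was Ift88, a core scaffold subunit (1.72 CPM). Ift27 stood at 45.2, 42.5, 34.8 and 32.9 CPM in the Ofd1 mutants, 31.7 and 27.1 CPM in the Sufu mutants, 48 and 84.1 CPM with sonidegib and 51, 46 and 40.4 CPM in parental libraries. The Sufu mutant libraries were the lowest of all 11, and sonidegib replicate 2 was the highest while replicate 1 lay among the parental libraries. Ift88 stood at 5.93, 6.10, 6.86 and 7.06 CPM in the Ofd1 mutants, 7.05 and 5.29 CPM in the Sufu mutants, 10.7 and 13.4 CPM with sonidegib and 8.96, 8.79 and 7.35 CPM in parental libraries. All 6 mutant libraries were below, and both sonidegib libraries above, the parental range. Ift46, another core subunit, stood at 26, 25.8, 23.9 and 30.1 CPM in the Ofd1 mutants, 26 and 35 CPM in the Sufu mutants, 34.6 and 57.4 CPM with sonidegib and 26.4, 24.7 and 27.4 CPM in parental libraries. Its sonidegib libraries lay above the parental ones, and R1 lay between them. The other 7 members averaged between 4.37 CPM per kb (Ift80) and 12.4 CPM per kb (Ift52).

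IFT-A members turn the train back and help membrane proteins enter. Ift140 was the highest per kb (5.74 CPM) and Wdr19 the lowest (1.40 CPM). Ift140 stood at 38, 62.1, 61.3 and 40.1 CPM in the Ofd1 mutants, 35.1 and 39.1 CPM in the Sufu mutants, 51.2 and 54.5 CPM with sonidegib and 45.2, 55.8 and 43.7 CPM in parental libraries. The R14 libraries, from the same clone, gave the lowest and the highest Ofd1 mutant value. Wdr19 stood at 15.6, 15.4, 13.5 and 11.3 CPM in the Ofd1 mutants, 16.2 and 10.1 CPM in the Sufu mutants, 24.7 and 14.2 CPM with sonidegib and 19.6, 18.7 and 14.5 CPM in parental libraries, with overlap in every group. Wdr35, another IFT-A subunit, stood at 25.4, 26, 28 and 33.5 CPM in the Ofd1 mutants, 32.4 and 16.8 CPM in the Sufu mutants, 38 and 27.7 CPM with sonidegib and 37.3, 39.2 and 24 CPM in parental libraries, and R1 was the lowest of the 11.

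Among the motors, Kif3a, a motor subunit of kinesin-2, was the highest per kb (21.3 CPM) and Dync2h1, the heavy chain of dynein-2, the lowest (3.14 CPM). Kif3a stood at 61.1, 63.1, 65.3 and 78.4 CPM in the Ofd1 mutants, 70.2 and 71.6 CPM in the Sufu mutants, 76.9 and 113 CPM with sonidegib and 76.2, 80.1 and 82.8 CPM in parental libraries. Dync2h1 stood at 52.3, 44.7, 59.2 and 55.6 CPM in the Ofd1 mutants, 51.7 and 44.4 CPM in the Sufu mutants, 54.4 and 41.9 CPM with sonidegib and 53.9, 59.3 and 47.9 CPM in parental libraries. Kif3a was lower in both Sufu clones than in every parental library, whereas Dync2h1 overlapped throughout. Kifap3, the subunit that joins kinesin-2 to cargo, stood at 82, 82.5, 66.6 and 106 CPM in the Ofd1 mutants, 54.5 and 29.8 CPM in the Sufu mutants, 79.1 and 111 CPM with sonidegib and 67.5, 66.2 and 67.4 CPM in parental libraries. The parental libraries were almost identical, both Sufu clones lay below them with R1 lowest, and R25 and sonidegib replicate 2 were highest. Dync2li1, a light intermediate chain of dynein-2, stood at 21.2, 29.4, 23 and 16.1 CPM in the Ofd1 mutants, 20.3 and 18.1 CPM in the Sufu mutants, 28.4 and 41.1 CPM with sonidegib and 20.6, 20.8 and 19 CPM in parental libraries. Both sonidegib libraries lay above the parental ones, and R14 library 2 lay between them.

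The BBSome is a coat that moves membrane proteins out of the cilium, and Arl6 is the GTPase that brings it to the membrane. Arl6 had the highest level per kb of all 51 members (43.8 CPM), and Bbs9, a core subunit, the lowest of this role (1.68 CPM). Arl6 stood at 93.3, 96.1, 94.1 and 106 CPM in the Ofd1 mutants, 97.9 and 60.4 CPM in the Sufu mutants, 77.2 and 121 CPM with sonidegib and 99, 86.7 and 79.2 CPM in parental libraries, with R1 lowest and sonidegib replicate 2 highest. Bbs9 stood at 10.4, 9.93, 7.71 and 10.7 CPM in the Ofd1 mutants, 8.66 and 12.2 CPM in the Sufu mutants, 12.7 and 11.4 CPM with sonidegib and 11.1, 11.9 and 8.74 CPM in parental libraries. Neither gene separated any group from the parental libraries. Ttc8 (BBS8), a BBSome subunit, stood at 10.5, 12, 11 and 9.84 CPM in the Ofd1 mutants, 13.1 and 14.6 CPM in the Sufu mutants, 20.6 and 27.4 CPM with sonidegib and 16.8, 16.5 and 13.5 CPM in parental libraries. The 4 Ofd1 mutant libraries were the lowest of the 11 and the sonidegib libraries the highest. Bbs2, a BBSome subunit, stood at 21.2, 22.5, 19.7 and 17.6 CPM in the Ofd1 mutants, 14.1 and 15.8 CPM in the Sufu mutants, 24.9 and 22.2 CPM with sonidegib and 16.4, 21.1 and 15.3 CPM in parental libraries. All Ofd1 mutant libraries exceeded both Sufu mutant ones, with the parental libraries spread across both ranges.

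**Figure D2:**
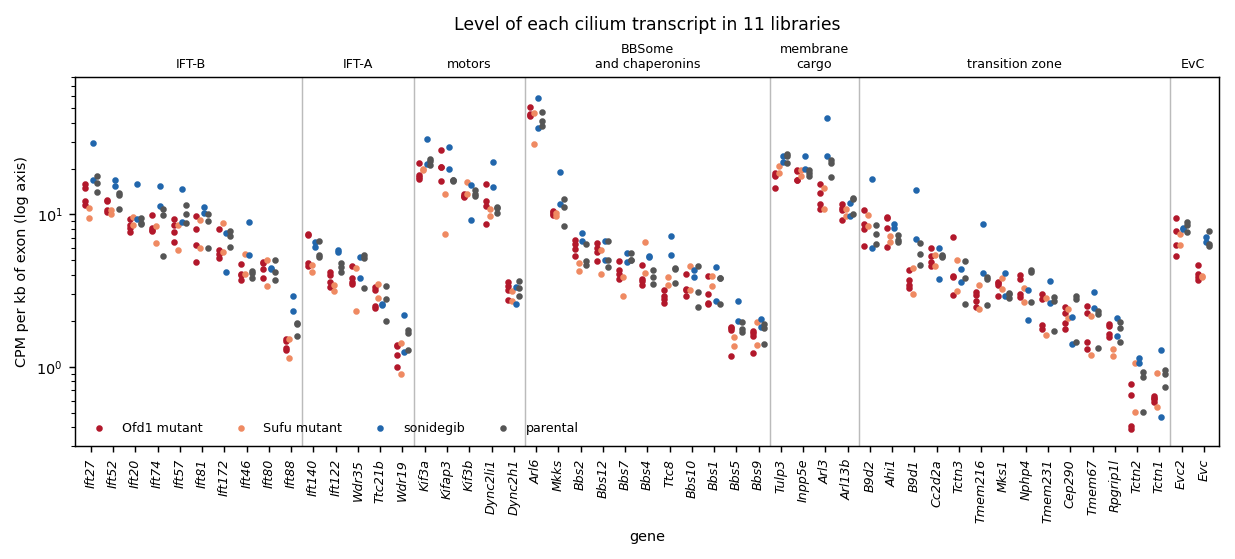
CPM per kb of exon (log axis) for each cilium member, grouped by role and ordered by mean level within it; each point is 1 library, coloured by group. Arl6 stands highest at a mean of 43.8 CPM per kb, and Tctn1 and Tctn2 lowest at 0.752 CPM per kb each.

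Transition zone proteins form the links and the membrane gate at the ciliary base, and they had the lowest levels per kb among the roles with at least 3 members (median 3.29 CPM). B9d2, a B9-domain protein, was the highest (8.85 CPM) and Tctn1, a tectonic, the lowest (0.752 CPM). B9d2 stood at 15.4, 12.7, 11.6 and 9.03 CPM in the Ofd1 mutants, 14.5 and 12.1 CPM in the Sufu mutants, 8.78 and 25 CPM with sonidegib and 9.34, 10.8 and 12.4 CPM in parental libraries. Tctn1 stood at 5.06, 5.20, 5.36 and 4.85 CPM in the Ofd1 mutants, 7.49 and 4.54 CPM in the Sufu mutants, 10.7 and 3.87 CPM with sonidegib and 7.47, 7.89 and 6.14 CPM in parental libraries. For both genes the sonidegib replicates gave the highest and the lowest value of all 11 libraries, in opposite order. B9d1, a partner of B9d2, stood at 5.90, 6.87, 5.23 and 5.45 CPM in the Ofd1 mutants, 7.13 and 4.75 CPM in the Sufu mutants, 11 and 23.1 CPM with sonidegib and 10.3, 8.79 and 7.44 CPM in parental libraries. All 6 mutant libraries were below the parental ones and both sonidegib libraries above, the second far above. Mks1, the third B9-domain member, stood at 11.9, 14.3, 14.5 and 14 CPM in the Ofd1 mutants, 13 and 15.4 CPM in the Sufu mutants, 16.6 and 11.8 CPM with sonidegib and 12.3, 11.4 and 12.2 CPM in parental libraries, and the Sufu mutant libraries lay above the parental ones.

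Rpgrip1l, a scaffold of the transition zone, stood at 22.9, 28, 27.3 and 24 CPM in the Ofd1 mutants, 19.3 and 17.3 CPM in the Sufu mutants, 30.8 and 23.3 CPM with sonidegib and 26.4, 29 and 21.2 CPM in parental libraries, lowest in both Sufu clones. Tmem216, a membrane protein of the gate, stood at 8.14, 8.85, 10.1 and 9.65 CPM in the Ofd1 mutants, 11.3 and 7.90 CPM in the Sufu mutants, 13.6 and 28.4 CPM with sonidegib and 12.4, 12.7 and 8.39 CPM in parental libraries. Its second sonidegib library was more than 2-fold above every other library. Tmem216 shares 169 exon bases with Cpsf7 and Tctn1 shares 1574 with Hvcn1, both on the other strand. They are among 9 members whose exons overlap another gene, with Bbs4, Bbs12, Mkks, Arl6, Inpp5e, Cep290 and Tmem67. The strand setting of the counting is not given in the sources used here, so reads of such pairs may not be told apart. RFX factors, which switch on cilium genes, bind a 14-base motif called the X-box. With both strands searched, it was found in the promoter windows of 2 of the 46 members with one (4.35%), against 296 of 27025 genes (1.10%). Both sites match the motif on the strand opposite the gene. They are shown along the gene's strand, so the capitals are the other strand of the motif, with 8 bases on either side. The Tctn2 site is at chr5:124598679-124598708 on the plus strand, 62 bases before the start. That of Tmem216 is at chr19:10555723-10555752 on the minus strand, just past the start (RefSeq, GRCm38.p6).
Tctn2: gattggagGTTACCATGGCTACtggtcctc
Tmem216: tgtacgcaGTTTCCATGGGGACtgaacatg
Tctn2, another tectonic, stood at 5.40, 3.37, 3.25 and 6.44 CPM in the Ofd1 mutants, 8.82 and 4.20 CPM in the Sufu mutants, 9.51 and 8.85 CPM with sonidegib and 7.66, 7.14 and 4.19 CPM in parental libraries. Both genes overlapped between each mutant group and the parental libraries, and both sonidegib libraries lay above the parental ones for each. Of the 10 Rfx and Foxj1-related regulators of cilium genes in the table, 7 were tested and 0 passed in each comparison.

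The Ofd1 mutant comparison asks how the cilium transcripts stand in clones mutant for a centriolar protein. Evc, Arl3, B9d1 and Ttc8 were the lowest members relative to the parental line, and no member rose or fell by the edgeR test. Evc averaged 31.4 ± 3.23 CPM in Ofd1 mutants (SD, n = 4) and 52.2 ± 6.69 CPM in parental libraries (SD, n = 3), a log2 fold change of -0.73 ± 0.13 (SE; adjusted p = 0.0644, edgeR). Arl3 had a log2 fold change of -0.65 ± 0.17 (adjusted p = 0.143), B9d1 of -0.59 ± 0.20 (0.247) and Ttc8 of -0.52 ± 0.15 (0.188). Of the 51 members 36 had a negative and 15 a positive value (70.6% negative, against 48.7% of all genes). Their median log2 fold change was -0.10 against 0.0079 over all 13779 genes tested.

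By edgeR 0 members passed in the Ofd1 mutants where 50 genes did (0.363% of those tested). With the R14 libraries of 1 clone summed, 1 gene passed and Evc had an adjusted p of 0.103. In the fit of all 4 libraries 6 members had an unadjusted p under 0.05, all lower, beside 6.20% of all genes in that direction. By DESeq2, 2.42% of genes passed as lower and 4 members did, none as higher. These were Evc (adjusted p = 0.000179), Arl3 (0.0161), Tulp3 (0.0165) and Ttc8 (0.0280). The 8 members whose Ofd1 mutant libraries all lay below the parental ones (15.7%, against 7.25% of all genes) were Ift88, Bbs7, Ttc8, Arl3, Tulp3, Tctn1, B9d1 and Evc. No member lay wholly above, beside 6.17% of all genes. Tulp3 had a log2 fold change of -0.43 ± 0.11, Tctn1 of -0.48 ± 0.19, Ift88 of -0.36 ± 0.18 and Bbs7, a BBSome subunit, of -0.28 ± 0.13. By role, all 4 cargo members and 8 of 10 IFT-B members were negative, while the 14 transition zone members split 9 negative to 5 positive around a median of -0.040. Without parental replicate 3, Evc passed as lower (log2 fold change -0.78, adjusted p = 0.0452, edgeR), 1.96% of the members beside 1.10% of all genes in that direction, and the members' median was -0.23, with 19 members below the parental libraries (37.3%, against 16.9% of all genes). Without parental replicate 1 the median was -0.045, without parental replicate 2 -0.049 and without R14 library 1 -0.065. Against parental replicate 3 alone the median was 0.13, with no test.

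In the Sufu mutant comparison, which sets clones mutant for a brake on the Gli factors against their parental line, Evc, Arl3, Kifap3 and Ift27 were the lowest members. Evc averaged 30.0 ± 0.245 CPM in Sufu mutants (SD, n = 2) and 52.2 ± 6.69 CPM in parental libraries (SD, n = 3), a log2 fold change of -0.78 ± 0.17 (SE; adjusted p = 0.318, edgeR). Arl3 had a log2 fold change of -0.66 ± 0.21 (adjusted p = 0.447), Kifap3 of -0.65 ± 0.26 (0.508) and Ift27 of -0.63 ± 0.18 (0.417). Kifap3 turned on the clone, at -1.16 without R13 and -0.28 without R1. Mks1, at 0.26 ± 0.21 (0.709), was the only member whose Sufu mutant libraries both lay above the parental ones (11.9% of all genes did), and it stood at 0.13 without R1.

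By edgeR 0 of 13854 genes passed in the Sufu mutants (0%), members included. An unadjusted p under 0.05 was found for 6 members, all lower (Ift27, Ift122, Kifap3, Bbs7, Arl3 and Evc), beside 658 genes that were lower (4.75%). DESeq2 called 326 genes, with 1.35% of those it tested called lower, and 1 member, Evc, was called lower (adjusted p = 0.00849). In 16 members, 31.4% of them, both clones lay below every parental library, against 14.8% of all genes. These were 4 IFT-B members (Ift27, Ift52, Ift57, Ift88), 2 IFT-A members (Ift122, Ift140), the kinesin-2 subunits Kif3a and Kifap3, Bbs5 and Bbs7, the cargo members Arl3 and Tulp3, the transition zone members Rpgrip1l and B9d1, and Evc and Evc2. The median member stood at -0.15 on the log2 scale, against 0.0043 for all genes. Values were negative for 37 members and positive for 14 (72.5% negative, against 49.5% of all genes). IFT-A had a median of -0.40 over its 5 members and the transition zone one of -0.089 over its 14. R1 lay at a median of -0.27 relative to the parental mean, and R13 at -0.076. Without R1 the members' median was -0.063, with 22 members below (43.1%, against 28.9% of all genes). Without R13 it was -0.27. Without parental replicate 3 it was -0.25, with 29 members below (56.9%, against 26.6%), and without parental replicate 1 or 2 it was -0.097. Against parental replicate 3 alone the members' median was 0.0011. The 16 members listed above lie below that library in both clones by the rule that picked them.

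**Figure D3:**
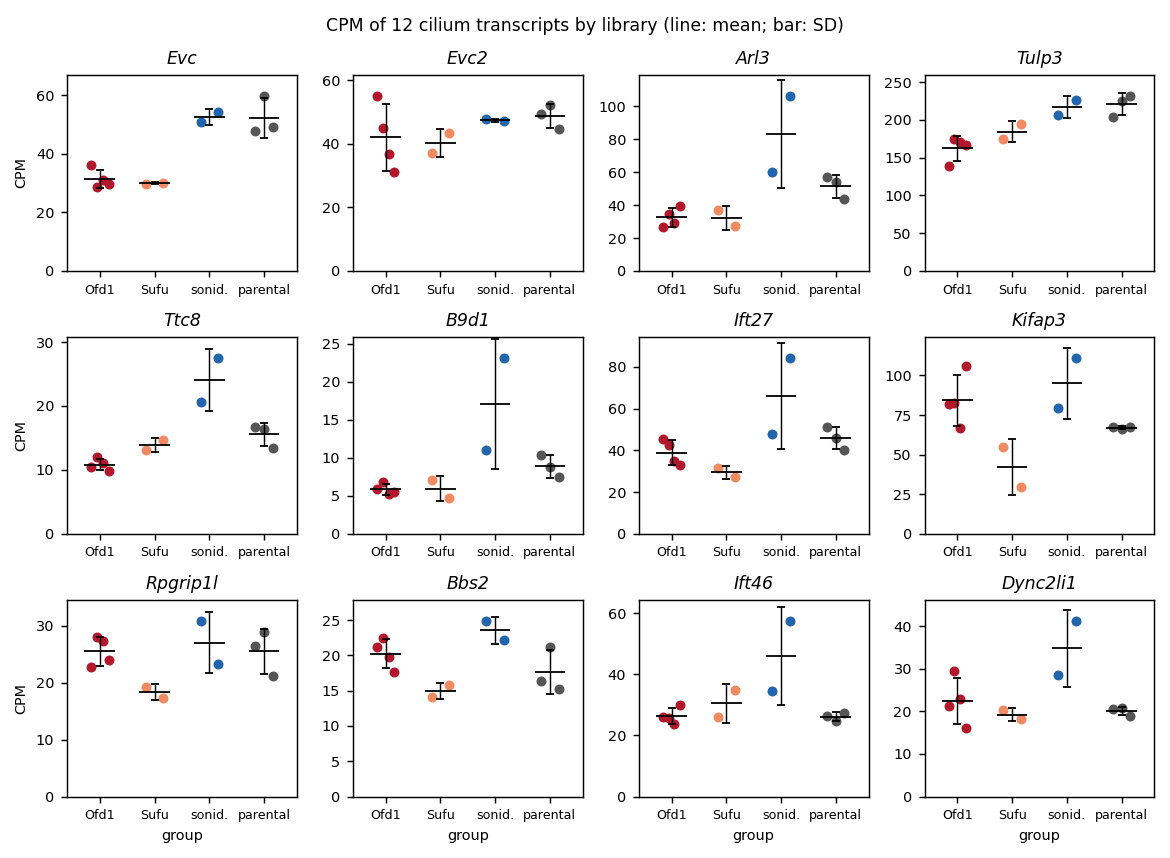
CPM of 12 cilium members by library, for the Ofd1 mutant, Sufu mutant, sonidegib (sonid.) and parental groups; points are libraries, the line is the group mean and the bar its SD. Evc, Arl3 and Tulp3 sit below the parental libraries in all mutant libraries, and for Arl3, B9d1, Ift27, Ift46 and Dync2li1 the bar is widest with sonidegib, where replicate 2 exceeds replicate 1.

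The Ofd1 and Sufu mutants were also compared with each other. Kifap3 differed most, with a mean of 84.2 ± 16.2 CPM in Ofd1 mutants (SD, n = 4) and 42.2 ± 17.5 CPM in Sufu mutants (SD, n = 2), a log2 fold change of 0.98 ± 0.29 (SE; adjusted p = 0.446, edgeR). It stood at 1.49 without R13 and 0.61 without R1. Rpgrip1l (0.46 ± 0.16), Bbs2 (0.42 ± 0.17) and Ift27 (0.38 ± 0.18) were also higher in every Ofd1 mutant library, which makes 4 members, 7.84% of them, against 9.85% of all genes. Without R13, 22 members were higher in every Ofd1 mutant library than in R1 (43.1%, against 27.1% of all genes), and without R1, 7 were higher than in R13 (13.7%, against 22.8%). Ttc8, at -0.37 ± 0.17, was the 1 member lower in every Ofd1 mutant library, beside 8.34% of all genes. No member passed edgeR, where 0.00713% of 14026 genes did, or DESeq2, where 1.91% did, and 3 members (Kifap3, Bbs2 and Rpgrip1l) had an unadjusted p under 0.05, all higher, beside 4.26% of genes in that direction. The members' median was 0.047 against -0.0033 for all genes. It was 0.18 without R13 and -0.045 without R1, and 0.014 to 0.055 without 1 Ofd1 mutant library. The values against the parental line stand side by side here, since both comparisons share those controls: Evc had -0.73 in Ofd1 mutants and -0.78 in Sufu mutants. Kifap3 had 0.34 ± 0.16 in Ofd1 mutants and -0.65 ± 0.26 in Sufu mutants.

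**Figure D4:**
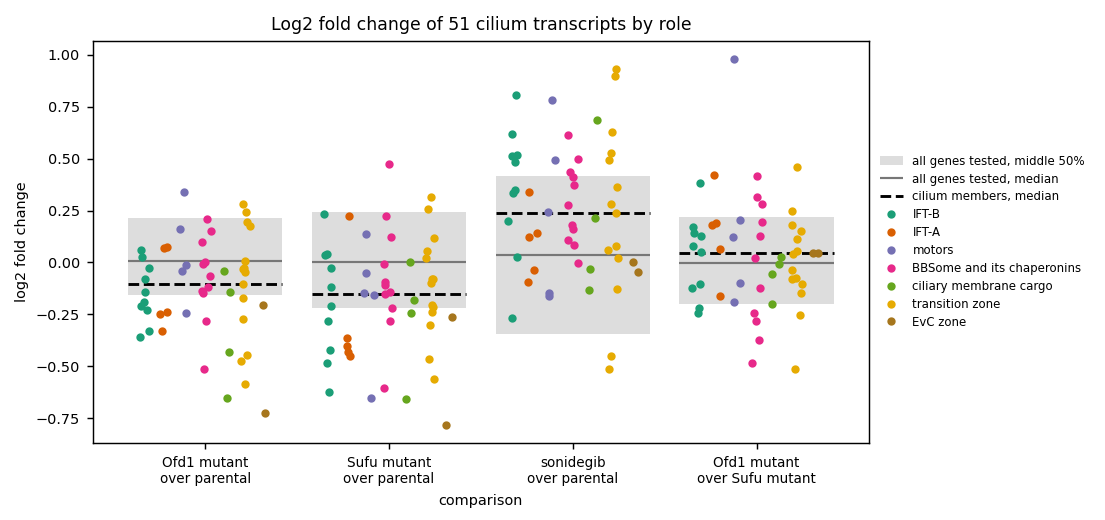
Log2 fold change of each of the 51 members in the 4 comparisons, coloured by role, with the members' median (dashed), the median of all genes tested (line) and the middle 50% of all genes (grey). The members' median lies at -0.10 for Ofd1 mutant, -0.15 for Sufu mutant and 0.24 for sonidegib over parental. The grey band is the spread of single genes and no measure for a median.

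The sonidegib comparison asks what happens to these transcripts when Smoothened is blocked. Their values stood above the parental line for 39 of the 51 members and below it for 23.5% of them, against 47.6% of all genes. The members' median log2 fold change was 0.24 against 0.036 over all 13809 genes. The highest were B9d1 at 0.93 ± 0.39 (SE; adjusted p = 0.355, edgeR), Tmem216 at 0.90 ± 0.39 (0.362), Ift46 at 0.81 ± 0.27 (0.284) and Dync2li1 at 0.78 ± 0.25 (0.273). Without sonidegib replicate 2 these values were smaller, at 0.29 for B9d1, 0.27 for Tmem216, 0.39 for Ift46 and 0.48 for Dync2li1. Evc and Evc2 did not separate, with log2 fold changes of 0.0029 ± 0.21 for Evc and -0.045 ± 0.20 for Evc2. B9d1 averaged 17 ± 8.56 CPM with sonidegib (SD, n = 2) and 8.86 ± 1.45 CPM in parental libraries (SD, n = 3).

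By edgeR 9 genes passed with sonidegib (0.0652%) and 0 members. DESeq2 called 5.17% of genes and 0 members. An unadjusted p under 0.05 was found for 4 members, all higher (Ift46, Dync2li1, Arl3 and B9d1), beside 7.18% of genes in that direction. Both sonidegib libraries lay above every parental one in 19 members, 37.3% of them, against 18.0% of all genes, and in no member did both lie below, against 16.3% of all genes. The 19 held 5 of 10 IFT-B members, 1 of 5 IFT-A members, 2 of 5 motors, 4 of 11 BBSome members, 2 of 4 cargo members, 5 of 14 transition zone members and neither EvC gene. IFT-B had a median of 0.42 and the EvC zone one of -0.021. Without sonidegib replicate 2, 29 members lay above the parental libraries (56.9%, against 30.3% of all genes) and 2 below (3.92%, against 27.9%). Without parental replicate 3, 19 lay above and 5 below, against 28% and 23.6%, and the median was 0.14.

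In sonidegib replicate 2 the members' levels moved with exon length. Among the 26 members with the shortest exons the median log2 level over the parental mean was 0.56 in replicate 2 and 0.25 in replicate 1. Among the 25 longer members it was -0.037 in replicate 2 and 0.21 in replicate 1. Over the 51 members r with log2 exon length was -0.64 in replicate 2 and 0.057 in replicate 1, as a description. Without replicate 1, 8 members passed edgeR, all higher (Ift27, Ift46, Dync2li1, Kifap3, Arl3, Tmem216, B9d1 and B9d2), which is 15.7% of them beside 10.6% of all genes in that direction, and without replicate 2, 0 passed and the members' median was 0.21. The replicates differed more than 1.5-fold for 18 members (35.3%, against 44% of genes in the members' range of mean CPM). With the length trend removed from each library, the median was 0.26, B9d1 stood at 0.53, Tmem216 at 0.76, Ift46 at 0.99 and Dync2li1 at 0.47. Replicate 1 set against parental replicates 1 and 2 gave a median of 0.16, with no test.

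**Figure D5:**
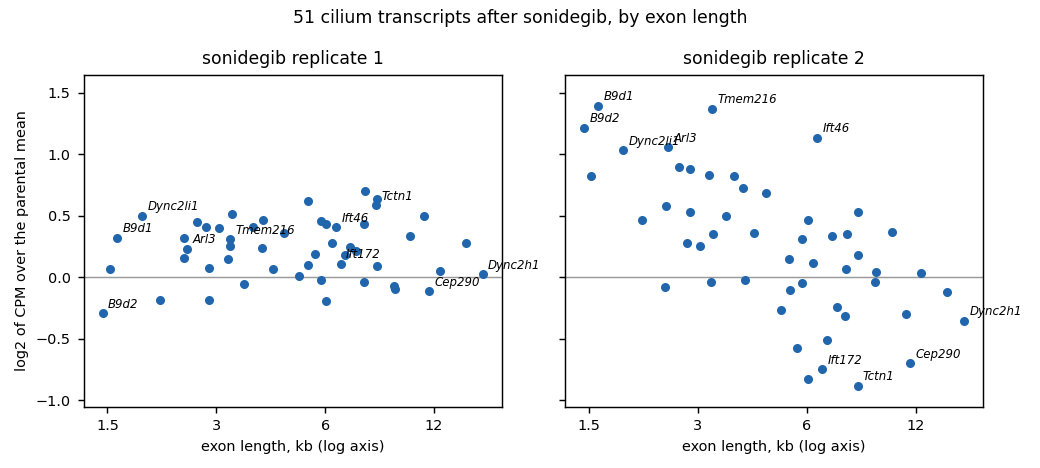
Log2 of CPM over the parental mean for the 51 cilium members against exon length (kb, log axis), in sonidegib replicate 1 (left) and replicate 2 (right); each point is 1 gene. In replicate 1 r is 0.057, while in replicate 2 short transcripts such as B9d1 lie high and long ones such as Cep290 and Dync2h1 lie below the parental mean (r = -0.64).

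Markers of other cell types are given as sums beside the members. The 17 multiciliated-cell markers in the table summed to 60.8 to 66.3 CPM in Ofd1 mutants, 65.8 to 68.8 CPM in Sufu mutants, 90.0 to 158 CPM with sonidegib and 72.8 to 86.9 CPM in parental libraries. Among them 6 averaged under 0.1 CPM, Mcidas, Dnah5, Rsph1, Rsph4a, Spag6 and Tekt1, and 0 of those tested passed edgeR in any comparison. Foxj1, the factor that directs motile cilium genes and 1 of the markers in that sum, was picked after its values were seen. It stood at 4.13, 5.63, 6.21 and 3.06 CPM in Ofd1 mutants, 3.85 and 1.55 CPM in Sufu mutants, 15.4 and 39.1 CPM with sonidegib and 7.44, 9.53 and 7.38 CPM in parental libraries. The list was mixed with sonidegib. Rsph9 was also higher, at 8.38 and 27.4 CPM against 6.17, 5.36 and 7.86 CPM in parental libraries. Hydin was lower, at 0.0667 and 0.179 CPM against 0.285, 0.212 and 1.45 CPM. Dnaic2, at 4.81 and 4.38 CPM, lay within its parental range (3.83, 3.00 and 7.09 CPM). The 5 astrocyte markers summed to 125 to 139 CPM in Ofd1 mutants, 99.5 to 119 CPM in Sufu mutants, 343 to 385 CPM with sonidegib and 183 to 248 CPM in parental libraries, with 2 of them under 0.1 CPM. Granule progenitor markers summed to 2418 to 2783 CPM in Ofd1 mutants, 2136 to 2193 CPM in Sufu mutants, 3607 to 3953 CPM with sonidegib and 2499 to 2828 CPM in parental libraries, and Gli1, lower with sonidegib, was the 1 marker of that list to pass. The part of cell makeup in the members' values was not tested. The 6 oligodendrocyte markers summed to 5.89 to 8.52 CPM in Ofd1 mutants, 7.45 to 13.8 CPM in Sufu mutants, 5.87 to 8.43 CPM with sonidegib and 4.62 to 4.91 CPM in parental libraries, so every library of the other groups lay above the parental ones. The 5 endothelial markers summed to 3.22 to 13.6 CPM in Ofd1 mutants, 2.32 to 3.02 CPM in Sufu mutants, 0.901 to 1.31 CPM with sonidegib and 1.89 to 9.83 CPM in parental libraries. A single gene, Cdh5, made up most of the highest sums, at 12.5 CPM in R14 library 2 and 8.83 CPM in parental replicate 3. Cldn5 had no counts in any library. Microglia and fibroblast or pericyte markers summed to at most 1.69 CPM in any library.

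Clones of 1 genotype differed among themselves in named members, and each share is set beside that of 9902 genes in the members' range of mean CPM. R1 stood more than 1.5-fold from R13 in 13 members (25.5%, against 21.4% of those genes), lower in 11 of them, Kifap3 and Wdr35 included. Among the Ofd1 mutants the pair of R14 libraries parted by more than 1.5-fold in 3 members (Ift140, Bbs5 and Tctn2; 5.88%, against 7.08%). R14 and R25 did so in 9 members for either R14 library (17.6%, against 17.8% for library 1 and 20.3% for library 2). Parental replicates 1 and 2 parted in 0 members (against 2.16%), and replicate 3 from them in 8 and 12 (15.7% and 23.5%, against 18.4% and 19.7%). Tctn3, a tectonic, stood at 9.72, 12.8, 12.6 and 23.1 CPM in the Ofd1 mutants, 16.4 and 10.2 CPM in the Sufu mutants, 14.3 and 11.7 CPM with sonidegib and 12.6, 16.3 and 8.42 CPM in parental libraries. R25 was its highest library of the 11. Tmem67, the meckelin receptor of the transition zone, stood at 10.1, 11.3, 17.5 and 19.3 CPM in the Ofd1 mutants, so that both R14 libraries lay below R16 and R25. It stood at 16.5 and 9.24 CPM in the Sufu mutants, 24 and 18.8 CPM with sonidegib and 17.9, 17.1 and 10.3 CPM in parental libraries. Ift81, an IFT-B subunit that binds tubulin, stood at 56.8, 46.6, 36.6 and 28.4 CPM in the Ofd1 mutants, 54 and 35.3 CPM in the Sufu mutants, 65.6 and 59.5 CPM with sonidegib and 58.9, 52.5 and 35.4 CPM in parental libraries, and R25 was the lowest of the 11.

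Of 68 further cilium genes, 59 were in the table and tested in each comparison, and 0 passed edgeR in any of them. Their median log2 fold change was -0.054 in Ofd1 mutants, -0.096 in Sufu mutants and 0.24 with sonidegib over the parental line, and 0.052 in Ofd1 over Sufu mutants. An unadjusted p under 0.05 was found for 8 of them as lower (13.6%, against 6.20% of all genes) and 1 as higher (1.69%, against 7.58%) in Ofd1 mutants. In Sufu mutants it was found for 4 as lower (6.78%, against 4.75%) and 0 as higher (against 4.93%). With sonidegib it was found for 7 as higher (11.9%, against 7.18%) and 0 as lower (against 6.86%). In Ofd1 over Sufu mutants it was found for 3 as lower (5.08%, against 4.68%) and 1 as higher (1.69%, against 4.26%).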

How the data were processed

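Gene counts were deposited as 1 table of whole-number counts with 22619 named genes for 11 libraries. Per the labels, poly(A) RNA libraries were made with a stranded kit from 500 ng of total RNA and read single-end at 75 bases. STAR, DESeq2 and the mm9 build are named in the submitters' processing notes. The counter, its strand setting, the annotation and every version were not given in the sources used here. An entry with no gene name held 0.0131% to 0.0192% of each library's counts and was left out.

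CPM were computed from library totals of named genes with TMM factors. Each comparison was fitted on its own libraries with edgeR 4.0.16 (R 4.3.3; filterByExpr, TMM, robust quasi-likelihood test, two-sided), with Benjamini-Hochberg adjustment over all genes tested and a threshold of 0.05. The edgeR fit was also run on simulated counts with known changes, the same spread for every gene and no length trend. That does not show how it performs on these libraries. DESeq2 1.42.0, another normalization, no filter, 1 fit of all 11 libraries, removal of a length trend, summed R14 libraries, a replicate block and leaving out each library were alternatives. Exon lengths came from the union of exons in GENCODE M21 (GRCm38), another build than the counts, so no coordinates were taken from it. Library pairs differed by more than sampling noise in all groups, so none was taken for a library deposited again; this does not show separate cultures, and the R14 libraries share a clone. Counts of members whose groups did not overlap without 1 library were added after seeing the data. The members and gene lists were chosen with earlier results of these data known. Members are given with the value in every library if they passed the test, or if they were the highest or lowest of their role per kb. So are members whose groups did not overlap, if their mean reached 5 CPM and they ranked among the 4 largest in either direction. Wdr35, Tctn2, Tctn3, Tmem67 and Ift81 were added after their values were seen.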

Additional observations from a re-analysis of the deposited data

Results flagged for a closer look

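In 51 members the 4 Ofd1 mutant libraries were searched for 1 that stood far from the others, where chance alone picks out about 5% of groups, and 2 were found. Ift74, an IFT-B subunit that binds tubulin with Ift81, stood at 26.5 CPM in R16 and at 20.8 to 21.7 CPM in the other 3 libraries. Bbs5, a BBSome subunit, stood at 2.86 CPM in R14 library 1 and at 4.28 to 4.43 CPM in the other 3, which include the second library of the same clone.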

How the results depend on the processing

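No member's direction reversed under any alternative among the members named per comparison: 197 values stayed on their side of the threshold, and 9 passed it that had not. By DESeq2, 775 genes passed in Ofd1 mutants, 326 in Sufu mutants, 711 with sonidegib and 268 in Ofd1 over Sufu mutants, and 4 members passed in Ofd1 mutants and 1 in Sufu mutants. Without a filter on low counts, 84, 3, 109 and 2 genes passed by edgeR in that order of comparisons. In 1 fit of all 11 libraries 9 passed in Ofd1 mutants and 316 with sonidegib. With the length trend removed 2 passed in Sufu mutants and 40 with sonidegib. With the R14 libraries summed 1 gene passed in Ofd1 mutants and 0 in Ofd1 over Sufu mutants. Another normalization (RLE) kept each count within 1.5 times.

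Leaving out 1 library gave 0 to 329 genes in Ofd1 mutants (329 without parental replicate 3, 226 without R25, 11 without R16, 6 without R14 library 1, 0 without R14 library 2, parental replicate 1 or 2). It gave 0 to 11 genes in Sufu mutants (11 without parental replicate 3), 0 to 3263 with sonidegib (3263 without sonidegib replicate 1, 1 without sonidegib replicate 2, 1 without parental replicate 1, 2 without replicate 2 and 0 without replicate 3), and 0 to 11 in Ofd1 over Sufu mutants (11 without R13, 2 without R1, 0 without R16 or either R14 library). A group left with 1 library was assumed to vary like the other. Members passing ran from 0 to 1 in Ofd1 mutants and from 0 to 8 with sonidegib. The members' median ran from -0.23 to -0.045 in Ofd1 mutants and from -0.045 to 0.18 in Ofd1 over Sufu mutants. Alternatives chosen after seeing the data used parental replicate 3 as the only control, which gave 0.13 for Ofd1 mutants and 0.0011 for Sufu mutants, and sonidegib replicate 2 against parental replicate 3, which gave 0.41. The cause was not tested. With the replicate block for sonidegib and parental replicates 1 and 2, 107 genes and 0 members passed and the median was 0.12; the labels only share numbers, and their deviations did not move together (r = -0.087 over 9902 genes, 2 pairs).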

Other observations

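Gpr161, a ciliary receptor that holds Hedgehog signalling down and is carried in by Tulp3, was picked after its values were seen. It stood at 13.2, 13.7, 12.3 and 14.5 CPM in Ofd1 mutants, 9.06 and 11.2 CPM in Sufu mutants, 22.1 and 1.70 CPM with sonidegib and 19.5, 20.4 and 19.9 CPM in parental libraries. All 6 mutant libraries lay below the parental ones, while the sonidegib replicates lay on opposite sides of them. Its log2 fold change was -0.56 in Ofd1 mutants (adjusted p = 0.115, edgeR) and -0.96 in Sufu mutants (adjusted p = 0.315, edgeR).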
